A study of Mus musculus with 4 samples.

Results

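Oxidative phosphorylation genes were described on 4 expression arrays of sorted mouse T cells. The members are the 87 genes, of 12393 named genes on the array, whose symbol in the platform annotation starts with Nduf, Sdha, Sdhb, Sdhc, Sdhd, Uqcr, Cox4, Cox5, Cox6, Cox7, Cox8 or Atp5, each read by its brightest probe set among those that carry that symbol alone. They comprise 34 subunit genes of complex I by symbol, all 4 of complex II, 8 of complex III, 16 of complex IV, 17 of the ATP synthase and 8 genes of assembly factors.

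Spleen cells of C57Bl/6 mice were sorted by flow cytometry after staining for CD4, CD8 and CD44, to set naive T cells that lack the transcriptional repressor Gfi1 beside normal ones. The 4 groups are CD4+ CD44lo cells from Gfi1 knockout mice, CD8+ CD44lo cells from mice labelled Gfi knockout, and CD4+ CD44lo and CD8+ CD44lo cells from wildtype mice, all untreated. Each group is 1 Affymetrix array with the RNA of 2 mice pooled, and no source used here gives the age of the mice or the knockout allele. The sample titles end in the letter N on both knockout-labelled arrays and in M on both wildtype-labelled arrays, and the labels do not explain the letters. With 1 array per group, no spread between animals can be measured and no difference below has a test: precision is limited by there being so few arrays, and p-values are not given.

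The respiratory chain lies in the inner mitochondrial membrane. Complex I oxidises NADH and complex II oxidises succinate, ubiquinone carries their electrons to complex III, cytochrome c carries them on to complex IV, which reduces oxygen, and the ATP synthase uses the resulting proton gradient to make ATP. Most subunits are encoded in the nucleus, and a small set in mitochondrial DNA. Naive and memory T cells rely largely on this pathway, while activated T cells add a high rate of glycolysis.

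Values are linear signal intensities. Signals below 93.9, the 40th percentile of all signals other than controls, were set to this floor before taking log2. A gene was tested in a comparison if at least 1 of both arrays lay above the floor, and counts were taken at a difference of 1.5-fold, a log2 difference of 0.58. Of the subset markers, Cd4 was above the floor on both CD4 arrays and on neither CD8 array, and Cd8a the reverse. The other CD8 marker, Cd8b1, was highest on the CD8 arrays (25715 knockout-labelled, 26222 wildtype-labelled) but also above the floor on the CD4 arrays, at 970.5 and 312. All 4 pan-T cell markers were above the floor on every array. The targeted gene was not lower on the knockout-labelled arrays: Gfi1 read 2891 in CD4 and 2447 in CD8 cells there, against 2272 and 1158 on the wildtype-labelled arrays, and no source used here says where its probe set lies relative to the deletion. Cd44 read 196 and 252 on the knockout-labelled arrays and 8136 and 5740.3 on the wildtype-labelled arrays, although every sample is described as CD44lo. The other 4 named markers of naive and memory state moved with the label too. Higher on both wildtype-labelled arrays were the memory markers Cxcr3 (13853 against 183 in CD4, 12356 against 2774 in CD8 cells), Ccl5 (12576 against 399.6, 27872 against 3909) and S100a4 (11921 against 317, 2658 against 166), while Ccr7, a marker of naive cells, was lower there (4805 against 15625, 8379.6 against 12549). Genotype is therefore given as labelled, and in every comparison of the labels below the labelled genotype and this difference in naive and memory markers cannot be told apart. Markers of dividing cells moved with the label as well: 7 of 8 could be named, 6 or 7 of these were above the floor on each array, and their summed signal was 1707 on knockout-labelled CD4, 3508 on knockout-labelled CD8, 9031 on wildtype-labelled CD8 and 18965 on wildtype-labelled CD4. All 4 dendritic cell markers were above the floor on the wildtype-labelled CD8 array, with a summed signal of 1851 against 92.7 to 308 on the other arrays. The 4 MHC class II markers were above the floor on every array. Their summed signal was 46620 on wildtype-labelled CD8 against 1443 to 4034.5 on the other arrays. Markers of macrophages and monocytes summed to 934 there, against 388 to 536 on the others. The part of these differences in the results below was not tested, and in bulk RNA fewer cells of a type and less RNA per cell cannot be told apart.

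Oxidative phosphorylation genes were detected broadly and were close to level on the 4 arrays. Of the 87 members, 82 lay above the floor on all 4 arrays, 3 on some and 2 on none. The highest of a gene's 4 signals was between 1.06 and 2.92 times its lowest over these 82 genes, with a median of 1.19. It stayed under 1.5 times for 77 of them (93.9%), against 62.1% of 6882 genes of the whole array above that floor everywhere, and 74.5% of the 3769 brighter ones among these, with a mean log2 signal of at least 10. Of the members, 77 are that bright. The 5 members with a wider range were Sdhaf1 (2.92 times), Cox7a2l (1.98), Ndufa6 (1.69), Ndufa9 (1.56) and Cox8c (1.53). The wildtype-labelled CD4 array was the lowest for Cox7a2l, Ndufa6 and Ndufa9, the wildtype-labelled CD8 array for Sdhaf1 and the knockout-labelled CD4 array for Cox8c.

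**Figure D1:**
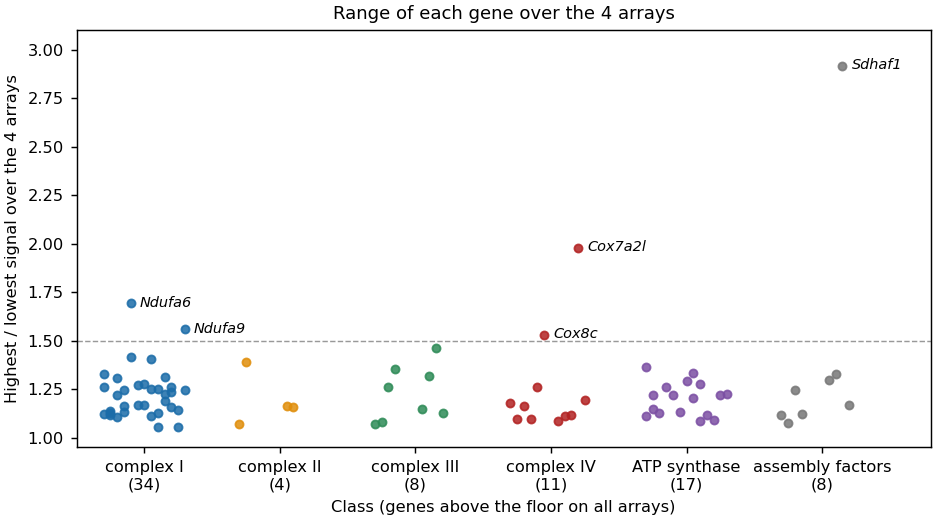
Highest over lowest signal of the 4 arrays (vertical axis, a ratio of linear signals) for each of the 82 members above the floor on all arrays, grouped by class with the number of genes in parentheses. Each point is 1 gene, the dashed line marks 1.5, and 5 named genes lie above it.

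In CD4 cells, 4 members were at least 1.5-fold higher on the knockout-labelled array and 0 were at least 1.5-fold lower. The 4 are 4.76% of the 84 members tested, while of all 8124 genes tested 7.72% lay that far above 0 and 15.5% that far below it. Among the bright genes these shares were 6.45% and 7.11%. The split over all genes depends on the scaling, at 11.0% above and 12.0% below after quantile normalization and 22.7% and 9.4% after centring each array on its median signal. The median log2 difference of the members was 0.09, with quartiles at -0.05 and 0.20, against -0.02 for all genes and 0.06 for the bright genes. In all, 69 members (82.1%) were within 1.25-fold, against 54.6% of all genes and 64.5% of the bright genes. The median's sign relative to all genes depends on the scaling: after quantile normalization the members' median was 0.01 and that of all genes 0.04, and 3 members were at least 1.5-fold higher (Cox7a2l, Ndufa9 and Sdhaf1). With centred arrays 16 members were that much higher, 6 of complex I, 1 of complex II, 3 of complex III, 1 of complex IV, 4 of the ATP synthase and 1 assembly factor.

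In CD8 cells, no member reached 1.5-fold in either direction between the labelled genotypes. Of all 8085 genes tested, 4.4% lay that far above 0 and 9.8% that far below it, and of the bright genes 2.02% and 3.34%. Over all genes the split was 6.29% and 7.74% after quantile normalization and 9.85% and 6.3% with centred arrays. With centred arrays, 3 members reached 1.5-fold upward (Atp5md, Ndufa6 and Sdhaf1). The members ranged from a log2 difference of -0.20 (Ndufb8) to 0.42 (Sdhaf1). Their median was 0.11, with quartiles at 0.005 and 0.16, against -0.02 for all genes and 0.02 for the bright genes. Of the 83 tested, 65 lay above 0 (78.3%), against 47.2% of all genes and 54.5% of the bright genes. After quantile normalization 74.7% of the members, 53.3% of all genes and 53.4% of the bright genes lay above 0.

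**Figure D2:**
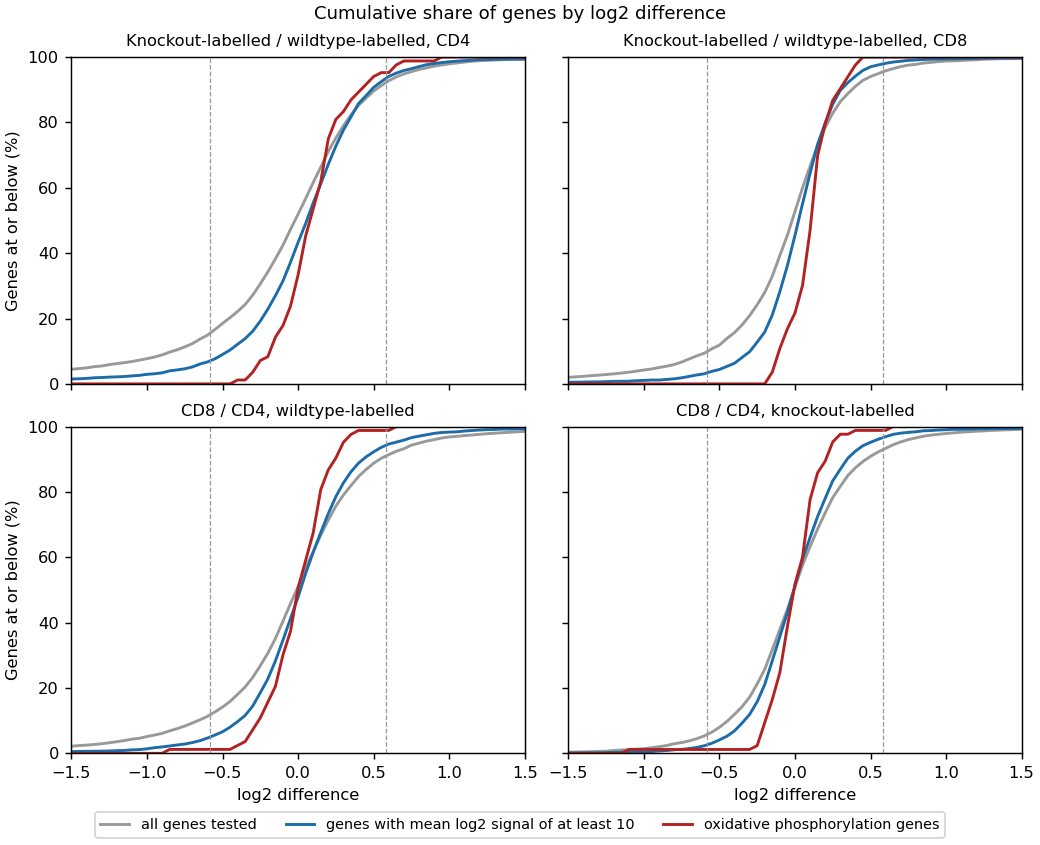
Cumulative share of genes (vertical axis, percent) at or below each log2 difference (horizontal axis) in the 4 comparisons, for oxidative phosphorylation genes, all genes tested and genes with a mean log2 signal of at least 10. Dashed lines mark 1.5-fold; the curve of the oxidative phosphorylation genes is the steepest in every panel, and between the labelled genotypes it starts to rise only to the right of the lower dashed line.

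The most divergent subunit gene was Cox7a2l, a relative of the complex IV subunit gene Cox7a2. Its product has been linked to supercomplexes of complexes III and IV, which were not measured here. The signal of Cox7a2l was 21965 on the knockout-labelled CD4 array and 11569.8 on the wildtype-labelled CD4 array. It was 22897 on the knockout-labelled CD8 array and 17874 on the wildtype-labelled CD8 array. The wildtype-labelled CD4 array stood apart as low, and the wildtype-labelled CD8 array lay between it and the knockout-labelled arrays. The difference between the labelled genotypes was 1.90-fold in CD4 cells (log2 0.92) and 1.28-fold in CD8 cells (log2 0.36). Both other probe sets of the gene gave log2 differences of 0.97 and 1.04 in CD4 cells and 0.29 and 0.38 in CD8 cells, so all 3 probe sets ordered the labels alike. Cox7a2 itself, read separately, was near level, with log2 differences of 0.11 and 0.13.

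Sdhaf1, whose product helps to insert iron-sulfur clusters into complex II, differed between the subsets as well as between the labels. It read 3634 on the knockout-labelled CD4 array, 2295 on the wildtype-labelled CD4 array, 1661 on the knockout-labelled CD8 array and 1246 on the wildtype-labelled CD8 array. Both CD4 arrays were above both CD8 arrays, and within each subset the knockout-labelled array was the higher. The CD8 signal was 1.84-fold lower than the CD4 signal on the wildtype-labelled arrays and 2.19-fold lower on the knockout-labelled arrays. Between the labels it was 1.58-fold higher on the knockout-labelled array in CD4 cells and 1.33-fold in CD8 cells. The gene has 1 probe set, so no second reading exists within these arrays.

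The complex I genes Ndufa6 and Ndufa9 were lowest on the wildtype-labelled CD4 array. Ndufa6 encodes a small accessory subunit of the matrix arm, and Ndufa9 an accessory subunit near the site where ubiquinone binds. Ndufa6 read 11013 on knockout-labelled CD4, 7035 on wildtype-labelled CD4, 11905 on knockout-labelled CD8 and 9123 on wildtype-labelled CD8, so that both knockout-labelled arrays were above both wildtype-labelled ones. Ndufa9 read 6474, 4152, 5694 and 5280 in the same order of arrays. The folds were 1.57 and 1.56 in CD4 cells and 1.30 and 1.08 in CD8 cells. Each has 1 probe set. The CD4 fold of Ndufa6 dropped below 1.5 after quantile normalization.

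Promoter stretches are shown for these 4 genes, the members at least 1.5-fold apart between the labelled genotypes in CD4 cells, to set their letters beside those of the other members. Each is the 120 bases just before the annotated start, from RefSeq (GRCm38.p6), 5′ to 3′ on the gene's strand, and capitals mark matches to the motif cores GGGCGG (SP1), CCAAT (NF-Y) and GCATGCG (NRF1), sought on both strands with CCGGAAG (ETS factors such as GABP) and AAGATGG (YY1).
Cox7a2l, chr17:83514334-83514453, minus strand: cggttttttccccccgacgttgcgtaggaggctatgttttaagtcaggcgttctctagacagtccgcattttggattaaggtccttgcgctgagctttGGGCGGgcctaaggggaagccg
Sdhaf1, chr7:30322376-30322495, minus strand: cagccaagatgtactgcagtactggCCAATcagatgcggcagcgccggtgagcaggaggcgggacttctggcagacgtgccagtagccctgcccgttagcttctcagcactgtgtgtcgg
Ndufa6, chr15:82354292-82354411, minus strand: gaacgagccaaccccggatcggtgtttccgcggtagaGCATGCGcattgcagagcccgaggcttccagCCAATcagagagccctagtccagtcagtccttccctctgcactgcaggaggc
Ndufa9, chr6:126849145-126849264, minus strand: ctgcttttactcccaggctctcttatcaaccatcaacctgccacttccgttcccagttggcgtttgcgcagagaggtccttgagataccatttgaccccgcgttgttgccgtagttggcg
Cox7a2l held an SP1 core beginning 22 bases before the start, Sdhaf1 a CCAAT box beginning 95 bases before it, and Ndufa6 both an NRF1 core beginning 83 bases and a CCAAT box beginning 52 bases before it. The stretch of Ndufa9 held none of the 5. The 4 stretches of 120 bases thus have no motif core in common among those searched. In the longer windows described next, Ndufa9 had a YY1 core, and Cox7a2l, Sdhaf1 and Ndufa6 each had an SP1 core. No core was shared by all 4 genes there either.

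A promoter window of 300 bases, 250 before and 50 after the start, was at hand for 73 of the 87 members. NRF1, GABP and YY1 are factors known to act on nuclear genes of mitochondria. The NRF1 core was present in the windows of 12 members (16.4%), against 4.0% of all 27025 genes with a window and 9.0% of the array's bright genes. The ETS core was present in 20 members (27.4%), against 9.9% of all genes and 26.8% of bright genes. The YY1 core was present in 10 (13.7%), against 7.3% and 10.6%, and the SP1 core in 34 (46.6%), against 38.2% and 72.5%. CCAAT was present in 29 (39.7%), against 41.1% and 42.5%. The members' share was thus above that of bright genes for the NRF1 core and below it for the SP1 core, and no difference between shares was tested. Among members above the floor on all arrays, the 12 with the NRF1 core had median log2 differences between the labelled genotypes of 0.06 (CD4) and 0.13 (CD8). For the 58 without it they were 0.085 and 0.10. The CD4 medians with and without each other core were -0.003 and 0.095 for YY1, 0.02 and 0.095 for SP1, 0.07 and 0.085 for ETS and 0.09 and 0.08 for CCAAT. In CD8 cells they were 0.07 and 0.11 for YY1, 0.08 and 0.11 for SP1, 0.10 and 0.10 for ETS and 0.11 and 0.10 for CCAAT.

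**Figure D3:**
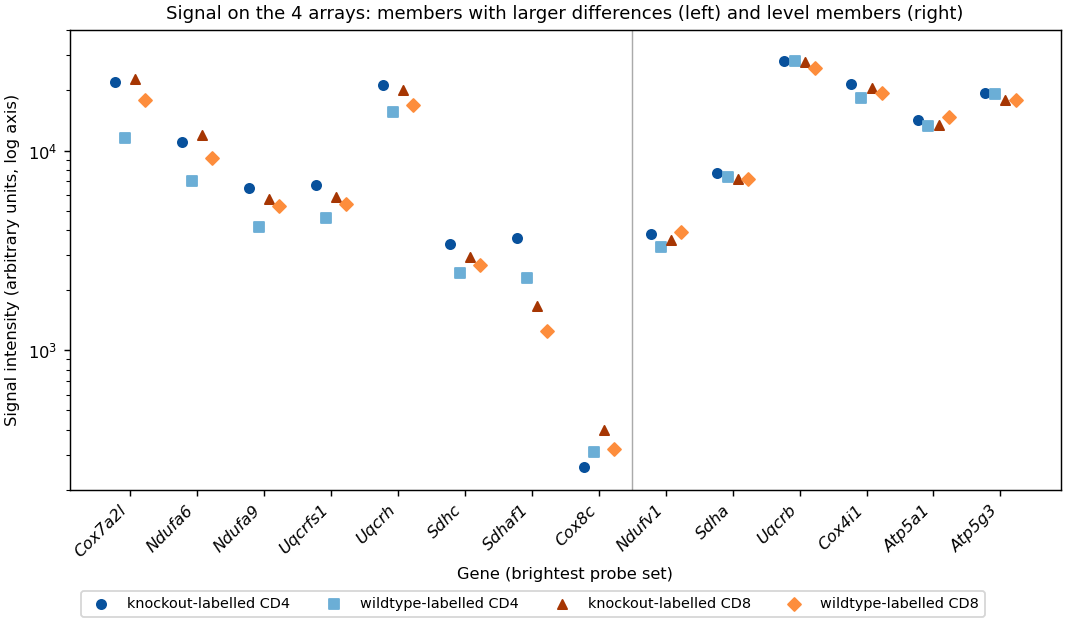
Signal (vertical axis, arbitrary units, log axis) on the 4 arrays for 8 members with larger differences and 6 nearly level members, separated by the vertical line; each point is 1 array. Points are to be compared within a gene only, since probe sets differ in brightness; Sdhaf1 shows both CD4 arrays above both CD8 arrays, and Cox7a2l shows the low wildtype-labelled CD4 array.

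Complex I was near level as a whole. Its 34 genes showed a median log2 difference of 0.03 for CD4 and 0.11 for CD8 cells (0.00 and 0.08 after quantile normalization), 2 were at least 1.5-fold higher in CD4 cells (Ndufa6 and Ndufa9) and 0 were at least 1.5-fold lower in either subset. The modules had similar medians. The 9 genes of the NADH-oxidising N module had medians of 0.08 and 0.11, the 5 of the ubiquinone-reducing Q module 0.03 and 0.00, and the 19 of the membrane arm 0.02 and 0.12. Ndufv1 encodes the core subunit that binds flavin, and Ndufs1 a core subunit with iron-sulfur clusters. Ndufv1 read 3815 and 3280 on the knockout-labelled and wildtype-labelled CD4 arrays and 3584 and 3902 on the CD8 arrays. Ndufs1 read 1633 and 1721 in CD4 cells and 2081 and 1933 in CD8 cells. Ndufa10, an accessory subunit gene of the membrane arm, had a log2 difference of 0.49 in CD4 and 0.12 in CD8 cells. Lowest in CD4 cells was Ndufb1, with a log2 difference of -0.41, on a dim probe set that read 309 and 410.3. Ndufb8 was the lowest in CD8 cells and had a negative log2 difference in both subsets (-0.25 and -0.20). Ndufa4 is counted here by its symbol, though its product is now held to be a complex IV subunit; its log2 differences were 0.00 and 0.22.

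Complex II, which also serves the tricarboxylic acid cycle, had no subunit gene at 1.5-fold in any of the 4 comparisons of the deposited values; with centred arrays Sdhc reached it in CD4 cells. Sdha, which carries the flavin, read 7729 on knockout-labelled CD4, 7380.4 on wildtype-labelled CD4, 7235 on knockout-labelled CD8 and 7225 on wildtype-labelled CD8. Sdhb, the iron-sulfur subunit gene, read 7216, 7264, 6249 and 6755 in that order. The highest array was 1.07 times the lowest for Sdha and 1.16 times for Sdhb. The membrane anchor genes both gave higher values on the knockout-labelled arrays: Sdhc had log2 differences of 0.48 (CD4) and 0.14 (CD8), and Sdhd of 0.12 and 0.21. A second, dimmer probe set of Sdhd gave 0.77 and 1.33, so the brightest and the dimmer probe set of this gene disagree on its size.

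By their brightest probe sets, the 8 complex III genes within the rule all lay above 0 in CD8 cells. Their log2 differences ran from 0.10 to 0.25 there, and from -0.27 to 0.55 in CD4 cells. All 8 were also above 0 in CD8 cells after quantile normalization. None reached 1.5-fold in the deposited values. A dim probe set of Uqcrq gave -0.31 in CD8 cells. The rule leaves out the cytochrome c1 gene Cyc1, which had -0.05 in CD8 cells. Uqcrfs1, the gene of the Rieske iron-sulfur protein, read 6692 on knockout-labelled CD4, 4577 on wildtype-labelled CD4, 5822 on knockout-labelled CD8 and 5385 on wildtype-labelled CD8. Uqcrh, the hinge protein gene, read 21170.1, 15632, 20013 and 16885 in that order. For both genes the wildtype-labelled CD4 array was the lowest, as for Cox7a2l, Ndufa6 and Ndufa9. These genes were named for high differences between the labels, so this order partly follows from the choice. That array also held the lowest signal of 36.3% of bright genes. Uqcrc1, a core protein gene, was the lowest of the complex in CD4 cells (log2 -0.27) and had 0.13 in CD8 cells.

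Complex IV includes widely expressed and tissue-restricted isoforms. Its median log2 difference was 0.095 in CD4 cells and turned to -0.03 after quantile normalization, and it was 0.10 and 0.06 in CD8 cells. The widely expressed genes Cox4i1, Cox5a, Cox5b, Cox6a1, Cox6b1, Cox6c, Cox7a2 and Cox8a were above the floor on all arrays and within 1.25-fold between the labelled genotypes in both subsets. Cox4i1 had the highest of their differences in CD4 cells, at log2 0.24. Of the muscle, testis and lung isoform genes, Cox4i2 and Cox7a1 were below the floor on all 4 arrays, with signals of 6.6 to 69.2 and 32.0 to 87.1. Cox6a2 was above it on both CD4 arrays (112 and 95.8), Cox6b2 on the knockout-labelled CD8 array alone (112), and Cox8b on the knockout-labelled CD4 array alone (104). These readings lie so near the floor that no difference is drawn from any of these genes singly. They do enter the medians above, each lying above its median. Cox6a2 (log2 0.23) and Cox8b (0.15) are among the 13 genes tested in CD4 cells. Cox6b2 (0.26) is among the 12 tested in CD8 cells. Cox8c, known from testis, read 260.3 on knockout-labelled CD4, 309 on wildtype-labelled CD4, 398 on knockout-labelled CD8 and 320.4 on wildtype-labelled CD8, above the floor on every array. Cox7c, a ubiquitous subunit gene, was read here only by dim probe sets. The brighter gave 443 to 559, with log2 differences of -0.33 in CD4 and -0.15 in CD8 cells. The dimmer gave 107 to 228, near the floor, with log2 differences of -1.09 and -0.455.

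The ATP synthase had a median of 0.17 in CD4 cells over 17 genes, the highest of the 5 complexes in the deposited values, against 0.10 in CD8 cells. After quantile normalization its CD4 median was 0.04, below the 0.10 of complex III and the 0.06 of complex II. None of its genes reached 1.5-fold in the deposited values, and 4 did in CD4 cells with centred arrays (Atp5d, Atp5g2, Atp5l and Atp5mpl). The 5 genes of the catalytic F1 part had medians of 0.17 and 0.00, and the 12 of the proton channel and stalks 0.17 and 0.13. Atp5a1 and Atp5b, which encode the subunits that bind nucleotides, had log2 differences of 0.10 and 0.24 in CD4 and of -0.14 and -0.12 in CD8 cells. The 3 genes that encode the same mature subunit of the rotating ring were level in CD8 cells (0.09 for Atp5g1, -0.01 for Atp5g2 and 0.00 for Atp5g3), and in CD4 cells stood at 0.15, 0.33 and 0.02. Atp5mpl, a small membrane subunit gene, was the highest in CD4 cells (0.42). Atp5md, another small membrane subunit gene, went opposite ways: it read 3666 and 4461 on the knockout-labelled and wildtype-labelled CD4 arrays (log2 -0.28), and 4326 and 3270 on the CD8 arrays (log2 0.40).

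Assembly factors within the rule were level apart from Sdhaf1. The other 7 had log2 differences between -0.31 (Ndufaf7) and 0.18 in CD4 cells and between -0.08 (Ndufaf3) and 0.09 in CD8 cells. A second probe set of the complex I assembly gene Ndufaf4 read 705 and 391 in CD4 cells, a log2 difference of 0.85, where the brighter one gave 0.11.

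Between the subsets, the members had no shift of their median. On the wildtype-labelled arrays the median CD8 minus CD4 log2 difference was -0.01 over 83 genes, and on the knockout-labelled arrays 0.00 over 85. On the wildtype-labelled arrays 9.0% of all genes and 5.7% of bright genes were 1.5-fold or more above their CD4 signal in CD8 cells, and 11.7% and 4.99% as far below it. On the knockout-labelled arrays 7.03% of all genes and 3.39% of bright genes were above and 5.63% and 2.55% below. Among the members, 1 gene was above and 1 below in each pair. Cox7a2l was higher in CD8 cells on the wildtype-labelled arrays (1.55-fold), where it was level on the knockout-labelled arrays (log2 0.06). Cox8c was 1.53-fold higher on the knockout-labelled CD8 array than on the CD4 array, at the low signals given above. Sdhaf1 was lower in CD8 cells in both pairs. It is the single member at least 1.5-fold apart the same way at both labels, where 2.25% of 7547 genes were lower and 2.33% higher in CD8 cells at both (0.902% and 1.54% of bright genes).

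The labelled genotypes were also compared for direction across the subsets, which share no array. Of 82 members tested in both subsets, 46 (56.1%) lay above 0 in both, 10 (12.2%) below 0 in both, 18 below 0 in CD4 and above 0 in CD8 cells, and 8 the reverse. Over all 7613 genes, 29.6% lay above 0 in both and 31.8% below 0 in both, and over the bright genes 36.9% and 25.6%. At 1.5-fold, 0 members were higher in both and 0 lower in both, where 1.52% and 5.32% of all genes were, and 0.928% and 2.02% of bright genes. The wildtype-labelled CD4 array held the lowest signal of 37 members (45.1%, against 36.3% of bright genes) and the wildtype-labelled CD8 array that of 30 (36.6%, against 21.0%). The shared direction depends on the scaling. After quantile normalization 34 of 82 members (41.5%) lay above 0 in both subsets, against 35.4% of all genes, and in CD4 cells alone 42 of 84 members did, against 54.6% of all genes. With centred arrays 80 of 82 (97.6%) lay above 0 in both, against 61.0% of all genes.

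**Figure D4:**
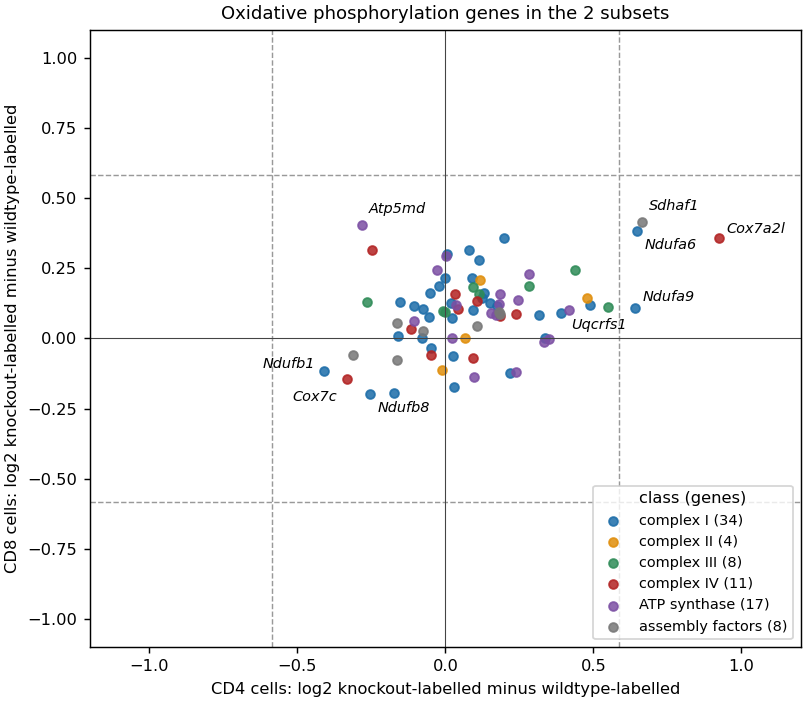
Log2 difference between the labelled genotypes in CD4 (horizontal axis) and CD8 cells (vertical axis) for the 82 members above the floor on all arrays, coloured by class; each point is 1 gene and dashed lines mark 1.5-fold. Points gather near the origin, somewhat to the upper right, and Cox7a2l, Sdhaf1, Ndufa6 and Ndufa9 lie past the right dashed line.

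Probe sets of the same gene gave a measure of reading error within these arrays. There were 44 members with more than 1 probe set above the floor on all arrays, and 65 probe sets beside the brightest ones. The median gap in log2 difference between such a probe set and the brightest one was 0.12 in CD4 and 0.13 in CD8 cells between the labelled genotypes. In CD4 cells the probe sets of 16 genes and in CD8 cells those of 12 had opposite signs. In 1 and 2 of these cases a probe set was past 1.5-fold: a dim probe set of Cox5b, at signals of 153 to 270.5, gave 0.74 in CD4 and -0.82 in CD8 cells, and a dim probe set of Atp5a1 gave -0.79 in CD8 cells. A further 8 probe sets list a symbol that fits the rule together with another symbol and were not used for genes; 7 of them were above the floor on all arrays. Log2 differences of these 7 ran from -0.02 to 0.445 in CD4 and from -0.445 to 0.33 in CD8 cells. The lowest CD8 value came from a probe set listed for Ndufb2 and Adck2, near the floor at 99.2 to 160. The 7 include those of Ndufb4, Ndufa11 and Ndufs6, which have no probe set of their own. Theirs ran from 0.04 to 0.445 in CD4 and from 0.03 to 0.33 in CD8 cells.

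Other mitochondrial gene lists differed in their medians. The list of the mitochondrial ribosome, which translates the subunits encoded in mitochondrial DNA, has 74 genes. On the knockout-labelled CD4 array 6 (8.11%) were at least 1.5-fold higher and 0 lower (median 0.14). In CD8 cells 1 (1.35%) was higher and 0 lower (median 0.10). Of all genes, 7.72% were that much higher and 15.5% lower in CD4 cells, and 4.4% and 9.8% in CD8 cells. Mrpl33 was the single mitochondrial ribosome gene higher in both subsets, at 1.84-fold and 1.90-fold. Of 26 further assembly factor genes (medians 0.01 and 0.08), 3 (11.5%) were at least 1.5-fold higher in CD4 cells and 0 in CD8 cells. The first was Sco2, which delivers copper to complex IV (2.57-fold in CD4, log2 -0.30 in CD8 cells). The others were Uqcc3, which acts in complex III assembly (1.80-fold and 1.24-fold), and Cox16, which acts in complex IV assembly (1.58-fold and 1.35-fold). Of 8 electron carrier genes (medians 0.04 and -0.03), Etfb, a subunit gene of the electron transfer flavoprotein, was 1.58-fold lower in CD4 cells. The cytochrome c gene Cycs and the cytochrome c1 gene Cyc1 were level (log2 0.05 and 0.12 in CD4, 0.15 and -0.05 in CD8 cells). Of 23 import genes, 2 (8.70%) were at least 1.5-fold higher in CD4 cells (Hspe1 and Timm10) and 0 lower. With centred arrays the higher CD4 counts rose to 23 mitochondrial ribosome, 8 further assembly factor and 8 import genes. Of all genes, 22.7% were then that much higher.

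Regulators and substrate pathways were read from lists of 8 to 16 tested genes each, beside the shares of all genes past 1.5-fold given above. Of 16 tested regulators of mitochondrial biogenesis, 0 reached 1.5-fold between the labelled genotypes in either subset in the deposited values. Yy1 came closest, 1.499-fold lower in CD4 cells (log2 0.18 in CD8 cells). It passed 1.5-fold after quantile normalization, where 12.0% of all genes were that much lower. Hcfc1 had log2 differences of -0.53 and -0.46. With centred arrays 4 were higher in CD4 cells (Myc, Polg, Polrmt and Pprc1) and 1 in CD8 cells (Nrf1). Of all genes, 22.7% and 9.85% then were. In the deposited values Nrf1 had log2 differences of 0.19 and 0.41, Tfam, which packages mitochondrial DNA, -0.15 and 0.18, and Ppargc1b 0.17 and 0.16. Ppargc1a was below the floor on all 4 arrays. Of 16 tested tricarboxylic acid cycle genes (medians 0.03 and 0.02), Idh2, a mitochondrial isocitrate dehydrogenase gene, was 1.65-fold and 1.61-fold higher on the knockout-labelled arrays, and Fh1, the fumarase gene, had a log2 difference of -0.59 in CD4 cells. Of 15 fatty acid oxidation genes (medians -0.03 and -0.04), 2 were higher (Acaa2 and Acadm) and 2 lower (Acadl and Decr1) in CD4 cells, 13.3% each way against 7.72% and 15.5% of all genes, and 1 was higher in CD8 cells (Cpt2). Of 8 tested carrier genes, Atpif1, whose product inhibits the ATP synthase, was 1.85-fold lower in CD4 cells (log2 -0.34 in CD8 cells), and Ucp3 was near the floor, at 24.4 to 141 over the arrays.

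Glycolysis genes had negative medians in the deposited values. On the knockout-labelled CD4 array 5 of 16 genes were lower by 1.5-fold or more and 0 higher, with a median of -0.25, and in CD8 cells 3 and 0, with a median of -0.19. Of all genes, 15.5% and 9.8% were that much lower. After quantile normalization 5 glycolysis genes were that much lower in CD4 and 2 in CD8 cells, and 0 higher in either. Their medians were then -0.15 and -0.22, and 12.0% and 7.74% of all genes were that much lower. With centred arrays 4 glycolysis genes were lower and 2 higher in CD4 cells and 1 (Hk2) was lower in CD8 cells. The medians then turned to 0.06 and 0.03, beside 0.28 and 0.19 for all genes. Hk2, a hexokinase gene, was lower by at least 2.20-fold in CD4 cells, with the knockout-labelled array at the floor, and by 2.38-fold in CD8 cells. Pfkp, a phosphofructokinase gene, was 1.52-fold and 1.62-fold lower. Tpi1 was 1.90-fold and 1.49-fold lower. The markers of dividing cells given above were lower on the same arrays. Of 37 tested proteasome genes, 0 reached 1.5-fold in either subset (medians 0.15 and 0.08). The median of 46 cytosolic ribosomal protein genes was 0.245 for CD4 and -0.075 for CD8 cells, and 0.02 and -0.005 after quantile normalization. The differences between these lists and the members were not tested.

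**Figure D5:**
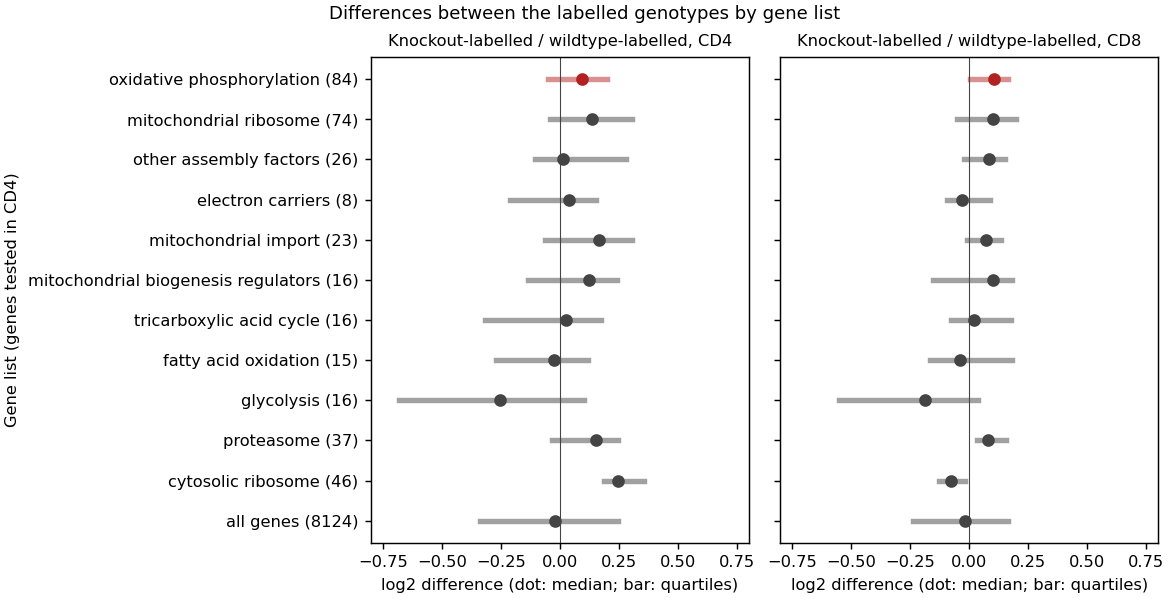
Median (dot) and quartiles (bar) of the log2 difference between the labelled genotypes (horizontal axis) in CD4 (left) and CD8 cells (right) for each gene list, with the number of genes tested in CD4 cells in parentheses. Oxidative phosphorylation genes, with medians of 0.09 and 0.11, sit beside the mitochondrial ribosome and proteasome lists. The glycolysis list is the furthest to the left in both panels, with medians of -0.25 and -0.19. Its medians are -0.15 and -0.22 after quantile normalization and turn to 0.06 and 0.03 when arrays are centred.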

How the data were processed

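Expression was measured on Affymetrix arrays, 1 per group, each with pooled RNA of 2 mice. Each probe set has 1 deposited linear intensity per array. Per the submitters' processing notes the tools were GCOS 1.4 and MAS5, and no source used here gives more. The 2% trimmed means are nearly equal on the arrays (980.3 to 982.6), which points to global scaling by the authors; such scaling can hide a change shared by most genes. Median signals were 189 to 235.

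Of 22690 probe sets, 64 controls were left out. The platform annotation lists 1 symbol for 20380 and several for 691, which were not used for genes. The brightest probe set by mean log2 signal stood for each gene. Differences are log2 of 1 array minus another, computed with Python 3.11.15, numpy 2.4.6 and pandas 2.3.3 and tested on simulated data with planted folds. With 1 array per group no test was made. The alternatives were quantile normalization, median centring, other floors, a pseudocount of 16, no filter, other choices of probe set and a 2-fold limit.

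The members and gene lists were chosen with earlier results of these data known. Named genes are, per comparison, the 5 members each way with the largest difference, 2 each way per class, the isoform genes, members below the floor, members whose probe sets disagree and up to 3 each way of each further list. Ndufa4, Ndufa10, Ndufv1, Cox6c, Cycs, Cyc1, Tfam, Ppargc1a and Ppargc1b were chosen after their values were seen, as were the level genes plotted by array. So were the second probe sets of Sdhd, Ndufaf4 and Cox7c.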

Additional observations from a re-analysis of the deposited data

Results flagged for a closer look

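ND5, the single mitochondrial DNA gene named on the array, had opposite differences between the labelled genotypes in the subsets. This complex I subunit gene, read by 1 probe set, gave 24022.5 on the knockout-labelled and 12054 on the wildtype-labelled CD4 array, and 15964 and 25875 on the CD8 arrays. The log2 difference was 0.995 in CD4 cells and -0.697 in CD8 cells. No test of this contrast between subsets was possible with 1 array per group, so the difference was not tested. No nuclear member reached 1.5-fold in opposite directions, where 71 of 7613 genes did.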

How the results depend on the processing

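No paired analysis was possible because each group has 1 array and the labels carry no replicate numbers. For the same reason no array could be left out of a comparison. Of 80 counts of members recomputed under the alternatives, 49 were within 1.5 times the reported count. The median of the members ranged from 0.006 to 0.404 in CD4 and from 0.083 to 0.321 in CD8 cells between the labels, and for CD8 minus CD4 from -0.021 to 0.072 on the wildtype-labelled and from -0.029 to 0.029 on the knockout-labelled arrays, so that neither median between the subsets has a settled sign. Centring the arrays on their medians moved the median of all genes to 0.28 in CD4 and 0.19 in CD8 cells and that of the members to 0.404 and 0.321, which is 0.12 and 0.13 above all genes, against 0.115 and 0.124 as deposited; after quantile normalization the members lay -0.04 and 0.06 from all genes. With centring 16 members were at least 1.5-fold higher in CD4 and 3 in CD8 cells. At 2-fold, 0 members were higher in CD4 cells, against 2.07% of all genes. In CD8 against CD4 cells, 0 members were higher at either label, and 0 were lower on the wildtype-labelled arrays. Of all genes, 3.2% were higher and 5.15% lower on the wildtype-labelled arrays, and 2.14% were higher on the knockout-labelled arrays. With a floor at the 25th percentile, a pseudocount of 16 or no floor, dim isoform genes entered. Under each, 2 members were lower in CD8 cells between the labels, against 15.94%, 17.65% and 22.34% of all genes. On the wildtype-labelled arrays 3 were higher in CD8 than in CD4 cells, against 13.69%, 14.75% and 18.89%. On the knockout-labelled arrays 2, 2 and 3 were higher, against 11.6%, 13.6% and 17.95%. There 4 were lower, against 10.85%, 13.03% and 17.71%. With the pseudocount and with no floor, 1 (Cox4i2) was lower in CD4 cells between the labels, against 21.04% and 25.44%. Cox6b2 joined the members higher in CD4 cells under both, beside 12.34% and 16.12% of all genes. With probe sets averaged, 1 member was lower in CD4 cells (Cox7c) and 1 higher in CD8 cells (Sdhd), against 14.08% and 3.7% of all genes. Without multi-transcript probe sets, 1 member was lower in CD4 cells (Cox7c), and 1 was higher (Atp5c1) and 1 lower (Cox5b) in CD8 cells. The matching shares of all genes were 15.8%, 4.57% and 9.73%. Cox5b and Ndufab1 then joined the members higher in CD4 cells, beside 8.0% of all genes. In CD8 against CD4 cells, 2 members were higher and 2 lower on the wildtype-labelled arrays, and 2 lower on the knockout-labelled arrays. There the shares of all genes were 9.1%, 11.7% and 5.71%. After quantile normalization 0 members were at least 1.5-fold higher in CD8 than in CD4 cells at either label. Of all genes, 9.77% were on the wildtype-labelled and 6.53% on the knockout-labelled arrays. With a floor at the 60th percentile 0 members were that much higher on the knockout-labelled arrays, against 3.56% of all genes, and Cox8c no longer reached 1.5-fold. Sdhaf1 was lower in CD8 than in CD4 cells at both labels by at least 1.5-fold in every setting run at that limit. Other causes were not tested.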
